A study of Rattus norvegicus with 12 samples.

Results

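The collagen genes were taken from the deposited count tables as every row whose symbol is Col, a number, a and a second number. There were 44 such rows of 34322 genes, and they cover 27 collagen types. Hearts came from male SD rats of wild-type genotype that weighed 180 to 200 g at the start. They received by gavage once daily either deionized water as the control or 50 mg per kg of sorafenib, a cancer drug that blocks RAF kinases and the receptors for VEGF and PDGF. Treatment lasted 14 or 28 days, which gave 4 groups of 3 libraries. Libraries are named here by group and by the replicate number in their titles, which was 2, 3 and 7 for water at day 14, 5, 6 and 7 for sorafenib at day 14, and 2, 3 and 4 in both groups of day 28. Whether each library is a rat of its own is not stated in the labels. The p-values therefore rest on library-to-library spread, which may be technical.

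Collagens are proteins of the extracellular matrix in which chains wind around each other into a rope-like helix. Fibrillar collagens, mainly types I and III in the heart, pack into the fibres of the interstitium and are made largely by fibroblasts, and they build up in cardiac fibrosis. Collagen IV forms the sheet of the basement membrane that surrounds cardiomyocytes and capillaries, and collagens XV and XVIII tie that sheet to the surrounding matrix. The 44 genes were divided into 11 fibrillar genes, 8 basement membrane genes (Col4a1 to Col4a6, Col15a1 and Col18a1) and 25 others. The others are 6 chains of the beaded filaments of collagen VI, 4 short-chain or anchoring collagens, 9 that sit on the surface of fibrils, and 6 membrane-spanning or less studied ones.

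Depth ran from 13746366 to 18534816 counts per library at day 14 and from 16785038 to 26403196 counts in 5 of the day 28 libraries. The remaining day 28 library, sorafenib replicate 3, held 1036483 counts, so that 1 count is worth 0.9648 CPM, the unit of counts scaled to the library's total. Collagens took 0.4035% to 1.003% of the counts of a library, and both ends of that range were sorafenib libraries of day 28. The highest share, 1.003%, was in the shallow replicate 3, which also had the highest share of the ribosomal RNA precursor Rn45s, at 1.643%. Sorafenib day 28 replicate 2 also stood apart, with 1.255% Rn45s and 1.315% of the mitochondrial ribosomal RNA mt-Rnr2, which was at most 0.2053% in the others. CPM values below are scaled with TMM factors over the 12 libraries.

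The 2 chains of the main basement membrane network, Col4a1 and Col4a2, are shown first because the results turn on them and because their promoters lie together. In mRatBN7.2, the assembly of the count tables, Col4a1 lies at chr16:78183533-78294412 on the plus strand and Col4a2 at chr16:78047591-78183360 on the minus strand. They stand head to head with 172 bases between their outermost exons and no gene between them. Their RefSeq promoter windows in GRCr8, each from 250 bases before to 50 bases after the gene's start, were chr16:84885347-84885646 for Col4a1 and chr16:84885471-84885770 for Col4a2. The windows share 176 bases. They are printed 5′ to 3′ on each gene's own strand, with capitals where the motif CCAAT or GGGCGG was found on either strand.
Col4a1: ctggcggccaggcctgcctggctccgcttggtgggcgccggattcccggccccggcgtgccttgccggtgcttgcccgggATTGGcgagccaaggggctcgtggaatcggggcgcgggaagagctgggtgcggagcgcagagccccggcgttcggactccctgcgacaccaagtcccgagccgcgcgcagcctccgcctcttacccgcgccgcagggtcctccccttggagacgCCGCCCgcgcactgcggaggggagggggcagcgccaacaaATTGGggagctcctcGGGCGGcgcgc
Col4a2: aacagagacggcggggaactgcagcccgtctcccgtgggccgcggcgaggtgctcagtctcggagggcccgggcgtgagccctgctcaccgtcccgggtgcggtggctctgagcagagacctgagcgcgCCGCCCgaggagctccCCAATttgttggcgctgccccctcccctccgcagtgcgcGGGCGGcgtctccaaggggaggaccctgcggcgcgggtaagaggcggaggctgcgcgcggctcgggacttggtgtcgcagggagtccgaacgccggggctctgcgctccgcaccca

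The Col4a1 window held 2 CCAAT and 2 GGGCGG motifs, and the Col4a2 window held 1 and 2. All matches of the Col4a2 window lie in the bases that the windows share, so each is the same site as a Col4a1 match. Neither held TATAAA. RefSeq windows were matched for 35 of the 44 collagens; those without an entry were Col1a1, Col2a1, Col3a1, Col6a2, Col9a3, Col12a1, Col14a1, Col22a1 and Col25a1. GGGCGG was found in 6 of 8 basement membrane genes, 6 of 8 fibrillar genes and 7 of 19 others with a window, against 33.1% of 33469 promoter windows of all genes. CCAAT was found in 2 of 8, 3 of 8 and 6 of 19, against 37.5% of all windows, and TATAAA in 0 of 8, 1 of 8 and 3 of 19, against 14.2%. The 2 basement membrane genes with CCAAT were Col4a1 and Col4a2, which share a site. These matches describe letters in a window and no binding was measured. The same head-to-head layout holds for Col4a3 and Col4a4 on chromosome 9, with 521 bases between them, and for Col4a5 and Col4a6 on chromosome X, with 1262 bases between them.

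In the water hearts, levels per gene length, in TPM (a gene's share of all counts after division by gene length), spanned several orders of magnitude. Col3a1, the chain of collagen III, was highest with a mean of 1090 TPM over the 6 water libraries. Col4a1 (450 TPM), Col1a2 (431 TPM), Col4a2 (370 TPM) and Col1a1 (360 TPM) followed, and Col15a1 was sixth at 245 TPM. The chains of collagen VI came next, with Col6a1 at 166 TPM, Col6a2 at 117 TPM and Col6a3 at 115 TPM. At day 14 the fibrillar class made up 54.7% to 56% of the collagen TPM in the water libraries, the basement membrane class 29.8% to 32.8% and the others 12.5% to 14.1%. At day 28 the water libraries were at 50.9% to 56.5% for the fibrillar class and 28.9% to 35.4% for the basement membrane class. The sorafenib libraries of day 28 lay on both sides of these ranges: the shallow replicate 3 had 66% fibrillar and 21.7% basement membrane, and replicate 4 had 43.4% and 39.6%. The 3 lowest collagens were Col9a1, Col2a1 and Col26a1, which reached 6, 5 and 2 counts in a library.

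**Figure D1:**
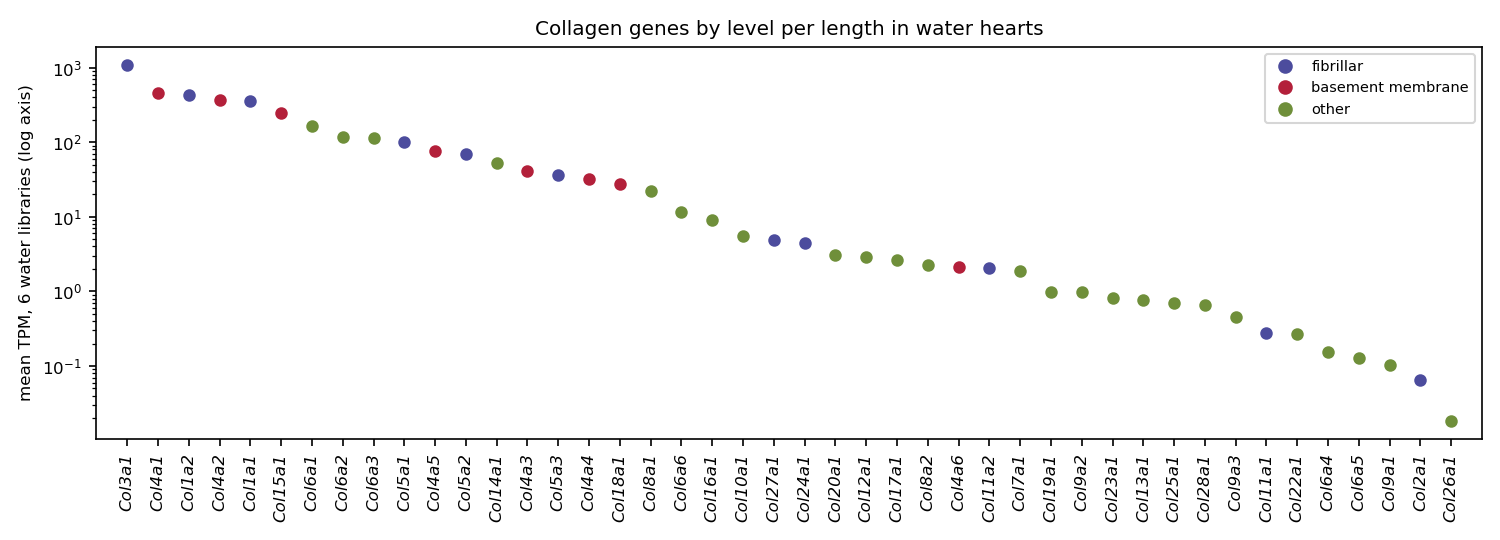
Mean level per gene length (TPM, log axis) of each of the 44 collagen genes over the 6 water libraries, ordered from highest to lowest and coloured by class. Col3a1 leads at 1090 TPM, and 3 of the 8 basement membrane genes are among the 6 highest.

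The effect of sorafenib was tested at each day and as the average of both days, by edgeR's quasi-likelihood test with Benjamini-Hochberg adjustment over all genes tested. Of the 44 collagens, 4 had too few counts for any fit (Col2a1, Col6a4, Col9a1 and Col26a1, the last with 2 counts at most), which left 40 in the fit of all groups and 38 in the fit of each day. In the average, 4 of the 40 passed an adjusted p of 0.05. Col15a1, Col4a1 and Col4a2 were lower with sorafenib and Col20a1 was higher. Of all 18174 genes tested, 4.41% passed (2.41% lower and 2% higher). The calls were thus 3 of 8 basement membrane genes, 0 of 10 fibrillar genes and 1 of 22 others. Before adjustment 14 of the 40 collagens had a p below 0.05, beside 24.3% of all genes. Among the fibrillar genes this was 1, and DESeq2 also called 1 of them, Col5a3.

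Col4a1 encodes a chain of the ubiquitous collagen IV network. In the water libraries of day 14 it was at 757, 1097 and 982 CPM in replicates 2, 3 and 7, and in the sorafenib libraries at 687, 474 and 600 CPM in replicates 5, 6 and 7. At day 28 water replicates 2, 3 and 4 had 1261, 1327 and 1220 CPM and sorafenib replicates 2, 3 and 4 had 904, 892 and 725 CPM. Every sorafenib library lay below every water library of its day. The means were 587 ± 107 against 945 ± 173 CPM at day 14 and 840 ± 100 against 1269 ± 53.7 CPM at day 28 (SD, n = 3 libraries each). The log2 fold change was -0.68 at day 14 (SE 0.21) and -0.55 at day 28 (SE 0.20), and its average was -0.64 (SE 0.14, edgeR adjusted p = 0.029).

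Col4a2, the partner chain that winds with Col4a1 in the same helix, moved alike. Water libraries of day 14 had 585, 923 and 824 CPM and sorafenib libraries 562, 411 and 519 CPM. At day 28 water libraries had 926, 1013 and 913 CPM and sorafenib libraries 719, 670 and 605 CPM. Its groups also did not overlap at either day, although water replicate 2 at 585 CPM and sorafenib replicate 5 at 562 CPM lay close together at day 14. The average log2 fold change was -0.58 (SE 0.14, edgeR adjusted p = 0.038). Within a library the ratio of Col4a1 to Col4a2 per length stayed between 1.1 and 1.3 in all 12 libraries.

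Col15a1, which encodes a collagen carrying chondroitin sulfate chains at the outer face of basement membranes of muscle and microvessels, had the smallest p of the collagens. It lies at chr5:61501963-61607591 on the plus strand (mRatBN7.2). At day 14 it was at 445, 630 and 468 CPM in the water libraries and at 354, 304 and 306 CPM in the sorafenib libraries. At day 28 the values were 338, 371 and 504 CPM in water hearts and 217, 223 and 212 CPM with sorafenib. The sorafenib libraries of day 28 lay close together, and the groups did not overlap at either day. The average log2 fold change was -0.79 (SE 0.14, edgeR adjusted p = 0.014). Exons of Col15a1 overlap those of LOC102551073, and counting used no strand, so reads from the overlapping stretch cannot be told apart between the 2 genes.

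The calls were not stable against leaving out single libraries. Col15a1 passed in 16 of 19 alternative settings (adjusted p from 2.56e-06 to 0.148), Col4a1 in 12 (0.00032 to 0.228), Col4a2 in 10 (0.00155 to 0.26) and Col20a1 in 8 (0.00748 to 0.44). No direction changed for these 4 genes in the 19 settings. The number of collagens called fell to 0 when replicate 3 of the day 14 water group was left out (60 of all genes then passed) and to 0 when replicate 2 of the day 28 sorafenib group, the library with the high mt-Rnr2 share, was (35 of all genes). It was 1 (Col15a1) without water day 14 replicate 7, sorafenib day 14 replicate 6, sorafenib day 14 replicate 7 or water day 28 replicate 3, and 2 without water day 28 replicate 4. In that order 399, 180, 294, 272 and 296 of all genes then passed, against 801 in the main fit. Omission of sorafenib day 28 replicate 4 raised this to 1562 of all genes, with the same 4 collagens called as in the main fit. These 4 were also called without water day 28 replicate 2 (775 of all genes). Omission of water day 14 replicate 2 gave 4 collagens, with Col5a3 in place of Col20a1 (375 of all genes). Omission of sorafenib day 14 replicate 5 gave 3 (510 of all genes). Without the shallow sorafenib day 28 replicate 3 the number of collagens called was 4, namely Col15a1, Col4a1, Col6a3 and Col8a1 (707 of all genes). With the replicate number within each day as a block it was 0, and 37 of all genes passed. At day 14 the groups share only number 7, so the day 14 effect in that fit rests on 1 pair of libraries. The fall to 0 there cannot be told apart from this loss of libraries.

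Col4a3, Col4a4, Col4a5 and Col4a6 make the collagen IV networks of restricted tissues such as the kidney filter. Col4a3 had values on the other side from Col4a1. At day 14 it was at 138, 119 and 132 CPM in water hearts and 180, 158 and 162 CPM with sorafenib, with no overlap. The day 28 libraries had 110, 98.5 and 139 CPM in water hearts and 136, 114 and 176 CPM with sorafenib, and the groups overlapped. Its average log2 fold change was 0.34 (SE 0.12, edgeR adjusted p = 0.12), which did not pass, and DESeq2 gave an adjusted p of 0.0455.

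The ratio of Col4a1 to Col4a3 per length within a library removes the library's scaling. It was 6.8, 11.5 and 9.27 in the water libraries of day 14 and 4.75, 3.73 and 4.61 in the sorafenib libraries. At day 28 the ratio was 14.2, 16.8 and 11 with water and 8.29, 9.7 and 5.11 with sorafenib. The groups did not overlap at either day. The ratio of Col4a5 to Col4a3 was likewise lower in every sorafenib library of its day, at 1.16 to 1.47 against 1.71 to 2.25 at day 14 and 0.805 to 1.43 against 1.77 to 1.89 at day 28. Col4a5 itself had an average log2 fold change of -0.26 (SE 0.12, edgeR adjusted p = 0.21). Of 10 gene ratios computed, 3 did not overlap at both days, and no test was made of them. The ratios were chosen after the values were seen, so they restate the gene values above and are not separate evidence.

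**Figure D2:**
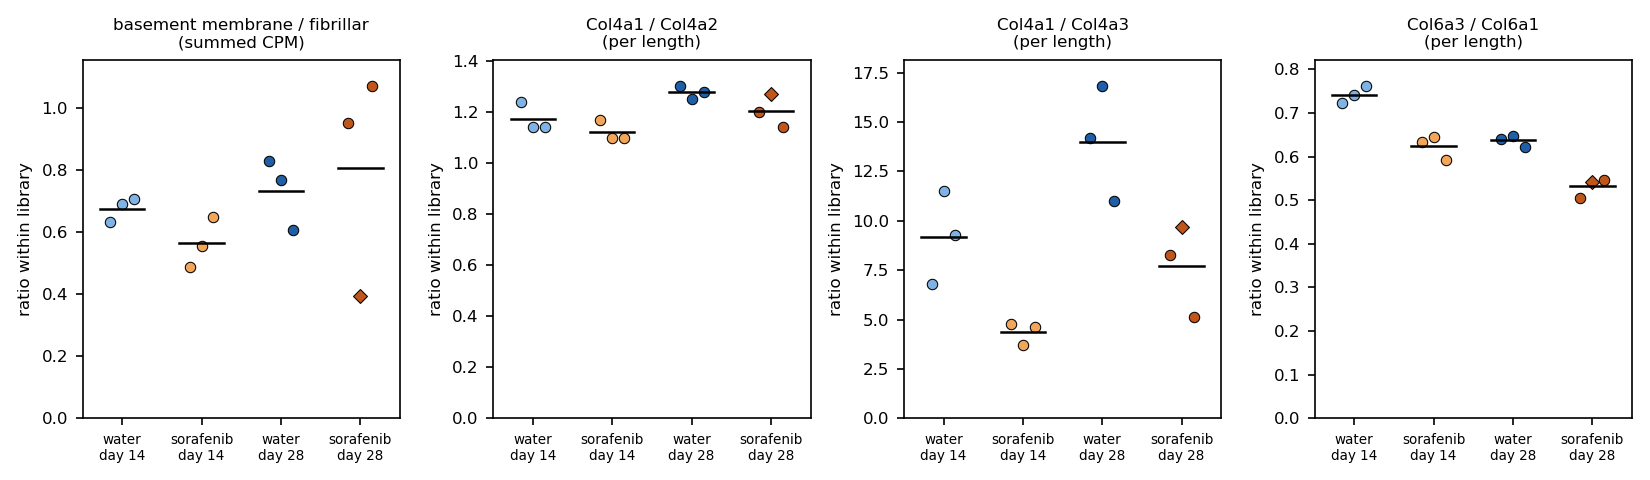
Ratios within each library (linear axis): summed CPM of basement membrane over fibrillar collagens, and the per-length ratios of Col4a1 to Col4a2, Col4a1 to Col4a3 and Col6a3 to Col6a1. Points are libraries, bars group means and the diamond the shallow library. The groups overlap at both days in the first pair of panels, and the sorafenib points lie below the water points of their day in the others.

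Col4a4, Col4a6 and Col18a1 showed no call. Their average log2 fold changes were 0.17 (SE 0.18), -0.14 (SE 0.21) and -0.22 (SE 0.18). Col18a1, the source of the endostatin fragment, was at 33 to 52.1 CPM with sorafenib against 43 to 73.1 CPM with water at day 14. In the day 28 groups it was highest in the shallow sorafenib replicate 3, at 70.2 CPM, against 35.9 to 37 CPM in the other sorafenib libraries and 40.3 to 52.2 CPM with water. The annotated Col4a4 model is only 1152 bases long, so its level per length rests on a short stretch. The median log2 fold change of the 8 basement membrane genes was -0.29 at day 14, -0.23 at day 28 and -0.24 in the average, beside medians of all genes of 0.001, -0.003 and -0.007.

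**Figure D3:**
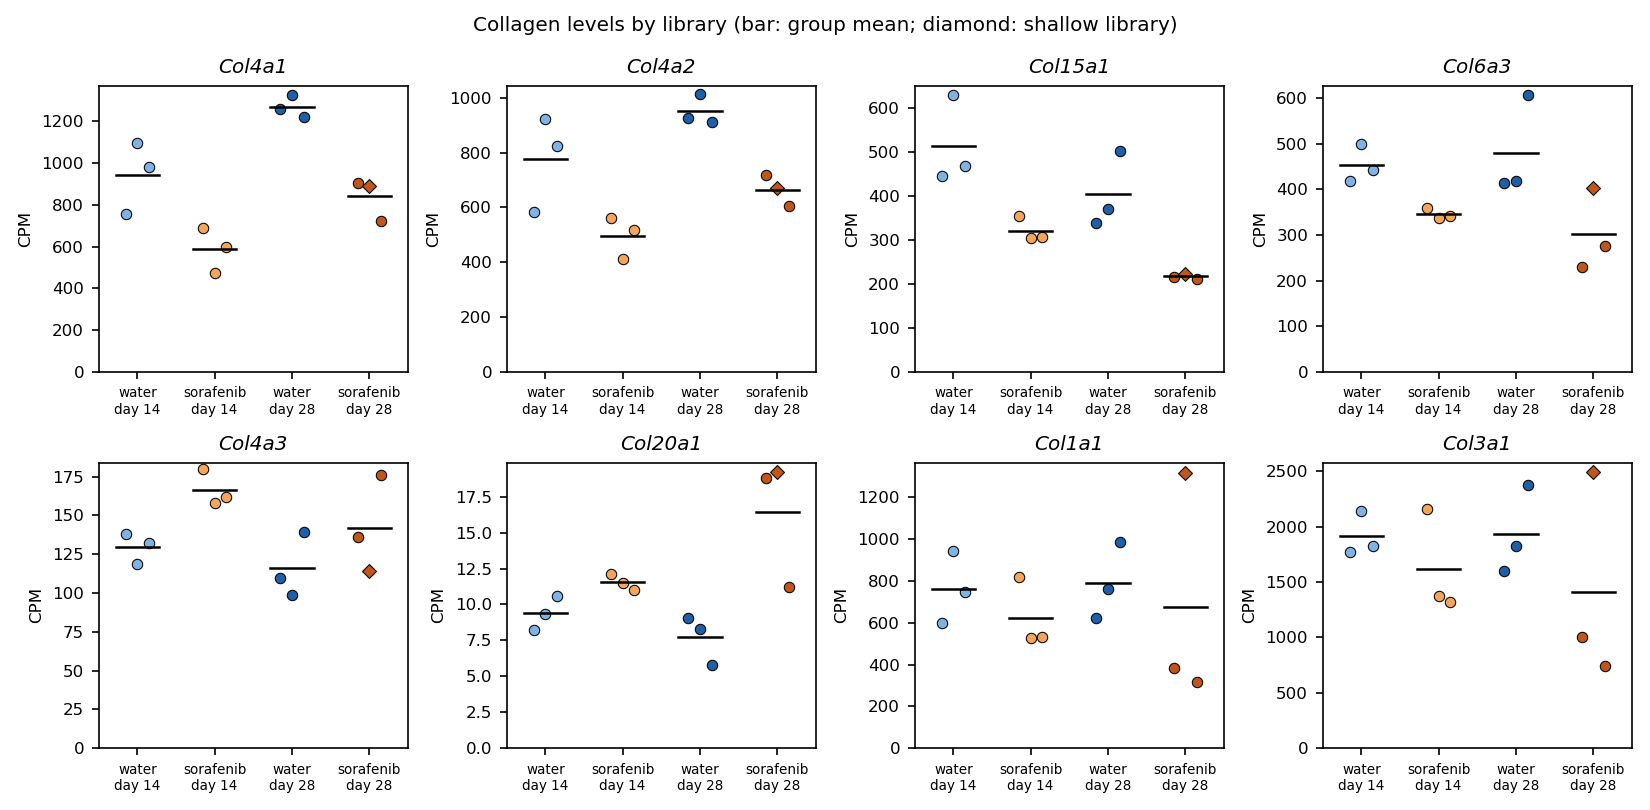
CPM (linear axis from 0) of 8 collagens in each of the 12 libraries. Points are libraries, bars group means and the diamond the shallow library. Col4a1, Col4a2, Col15a1 and Col6a3 are lower in each sorafenib library than in each water library of its day, Col20a1 is higher, and Col1a1 and Col3a1 overlap.

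The fibrillar chains of the interstitium had average log2 fold changes below 0 in 7 of 10 genes, with a median of -0.31, and none passed in the average (edgeR). Col1a1, a chain of collagen I, was at 597, 944 and 748 CPM in water hearts and 819, 525 and 530 CPM with sorafenib at day 14. At day 28 it was at 621, 763 and 985 CPM in water hearts and 385, 1316 and 318 CPM with sorafenib. The sorafenib libraries of day 28 were the lowest and the highest of that day, and the value of 1316 CPM came from the shallow replicate 3. Its average log2 fold change was -0.27 (SE 0.30, edgeR adjusted p = 0.61).

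Col3a1 had the same layout. It was at 1770, 2145 and 1827 CPM in water hearts and 2162, 1378 and 1321 CPM with sorafenib at day 14, and at 1602, 1826 and 2371 CPM in water hearts and 1008, 2491 and 742 CPM with sorafenib at day 28. The groups overlapped at both days. Average log2 fold changes were -0.35 for Col3a1 (SE 0.26, edgeR adjusted p = 0.42) and -0.35 for Col1a2 (SE 0.20, adjusted p = 0.29). Sorafenib day 14 replicate 5 and sorafenib day 28 replicate 3 were the sorafenib libraries with the highest summed fibrillar CPM, 4231 and 5345, against 3455 to 4458 with water at day 14 and 3451 to 5014 at day 28. In these same libraries Col4a1, Col4a2 and Col15a1 were below every water library of the day. The summed level of the 10 activated fibroblast markers was highest there as well, though not that of each marker (Cilp, Meox1 and Tnc at day 14, and Fap, Comp and Meox1 among others at day 28, were not highest there). The markers summed to 179.3 CPM in sorafenib day 14 replicate 5, against 82.2 and 86.31 CPM in the other sorafenib libraries and 77.45 to 130.7 CPM with water. In sorafenib day 28 replicate 3 the sum was 319.9 CPM, with Comp and Meox1 at 0, against 93.25 and 59.11 CPM in the other sorafenib libraries and 93.82 to 129.3 CPM with water. The summed cardiomyocyte markers were lowest of their day in the same libraries, at 92340 CPM in sorafenib day 14 replicate 5 and 103700 CPM in sorafenib day 28 replicate 3, against at least 115900 CPM in each of the others. Rn45s took 0.8417% and 1.643% of their counts. The part of activated fibroblasts, of fewer cardiomyocyte reads and of RNA quality in the fibrillar values was not tested.

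Without the shallow replicate 3 the day 28 median of the fibrillar class was -0.62 in place of -0.28. The summed ratio of basement membrane to fibrillar collagens overlapped between groups at both days. It was 0.489 to 0.65 with sorafenib against 0.632 to 0.706 with water at day 14. At day 28 sorafenib replicates 2, 3 and 4 had ratios of 0.952, 0.395 and 1.07, against 0.83, 0.767 and 0.606 with water. The overlap at day 28 thus rests on the shallow replicate 3, and the other sorafenib libraries lay above every water library. No test of the difference between the classes was made.

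The minor fibrillar chains regulate how thick collagen fibrils grow. Col5a3, a chain of collagen V, was at 38.3, 88.9 and 92 CPM in water hearts and 54.8, 30.7 and 35.1 CPM with sorafenib at day 14. At day 28 the values were 108, 107 and 127 CPM in water hearts and 75.4, 86.9 and 43.8 CPM with sorafenib. The groups overlapped at day 14 and not at day 28. Its average log2 fold change was -0.81 (SE 0.22, edgeR adjusted p = 0.054), just short of the threshold. Col5a1 was at -0.37 (SE 0.19) and Col5a2 at -0.15 (SE 0.14). Col11a1, a cartilage-type chain, was at most 1.59 CPM in any library, with 0.108 to 1.04 CPM in water hearts and 1.26 to 1.57 CPM with sorafenib at day 14, and Col11a2 had an average of 0.24 (SE 0.23).

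**Figure D4:**
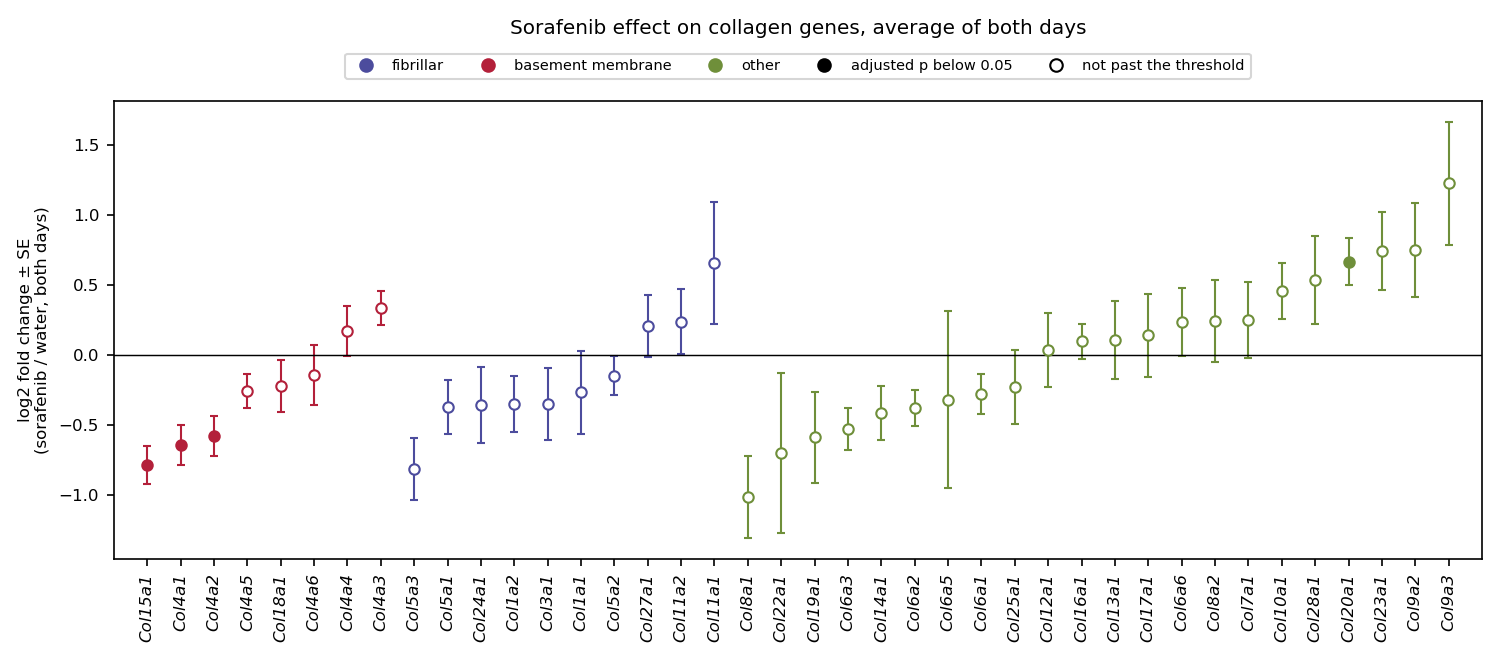
Average log2 fold change of sorafenib over water (both days, fit of all 4 groups) with its SE for the 40 tested collagens, coloured by class. Filled points passed an adjusted p of 0.05: Col15a1, Col4a1 and Col4a2 below 0 and Col20a1 above it.

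The beaded filaments of collagen VI link basement membranes to interstitial fibres. Col6a3 was at 419, 500 and 442 CPM in water hearts and 359, 338 and 342 CPM with sorafenib at day 14. The day 28 libraries had 414, 418 and 608 CPM in water hearts and 230, 404 and 276 CPM with sorafenib. The groups did not overlap at either day, with 404 and 414 CPM as the nearest values at day 28. Its average log2 fold change was -0.53 (SE 0.15, edgeR adjusted p = 0.060), short of the threshold, and it passed by DESeq2 (adjusted p = 0.0164).

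The ratio of Col6a3 to Col6a1 per length was 0.593 to 0.646 with sorafenib against 0.723 to 0.761 with water at day 14, and 0.506 to 0.547 against 0.623 to 0.648 at day 28. It was thus lower in every sorafenib library of its day. Col6a1 and Col6a2 lie on the same strand of chromosome 20, with 97076 bases and 1 gene between them. Both join Col6a3 in the same molecule. Their average log2 fold changes were -0.28 (SE 0.15) and -0.38 (SE 0.13, edgeR adjusted p = 0.095). At both days 4 tested collagens (Col4a1, Col4a2, Col15a1 and Col6a3) were lower in all sorafenib libraries than in all water libraries, beside 3.36% of all genes tested. In the other direction it was 1 collagen, Col20a1, beside 2.44%.

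Col20a1, a fibril-associated collagen, was the only collagen that edgeR called higher in the average. It lies at chr3:168102475-168134759 on the plus strand (mRatBN7.2). Its values were 8.24, 9.35 and 10.6 CPM in water hearts and 12.1, 11.5 and 11 CPM with sorafenib at day 14. At day 28 it was at 9.03, 8.32 and 5.78 CPM in water hearts and 18.8, 19.2 and 11.2 CPM with sorafenib. The groups did not overlap, and the gap between them was small at day 14, from 10.6 to 11 CPM. The average log2 fold change was 0.67 (SE 0.17, edgeR adjusted p = 0.040). Its exons overlap those of LOC102546950, and reads from the overlapping stretch cannot be told apart between the genes.

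Col8a1, a short-chain collagen of vessel walls and remodelling tissue, had the largest log2 fold change in size of a tested collagen at either day. At day 14 it was at 19.2, 26 and 11.6 CPM in water hearts and 22.5, 16.3 and 12.3 CPM with sorafenib, which overlapped. At day 28 the values were 35.1, 58.4 and 34.2 CPM in water hearts and 9.78, 27.6 and 7.11 CPM with sorafenib, which did not. The day 28 log2 fold change was -1.84 (SE 0.43, edgeR adjusted p = 0.152). It passed by DESeq2 (adjusted p = 0.00944) and with the replicate block. The difference between the days was -1.73 (SE 0.58, unadjusted p = 0.0105, edgeR adjusted p = 0.999) and did not pass.

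Col14a1, a fibril-associated collagen that coats fibrils in the interstitium, had 52.5 TPM in the water libraries. In CPM it was at 70.7 to 134 CPM with sorafenib and 115 to 190 CPM with water at day 14, with an average log2 fold change of -0.42 (SE 0.19). Col12a1, a related collagen, was at 0.04 (SE 0.27). Col23a1 was at 0.75 (SE 0.28, edgeR adjusted p = 0.12), Col28a1 at 0.54 (SE 0.31) and Col9a3 at 1.23 (SE 0.44, adjusted p = 0.11). These last 3 were at most 4.05 CPM in any library, so they rest on few counts in the shallow one. The median of the 22 tested others was 0.10 in the average, and 13 of the 22 lay above 0. It was 0.00 without sorafenib day 28 replicate 3, 0.02 without sorafenib day 14 replicate 5 or water day 28 replicate 4, and -0.05 with the replicate block.

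Within a single day no collagen passed by edgeR at either day, and 0% of all genes did. At day 14 the number of collagens with an unadjusted p below 0.05 was 6 of 38, beside 14% of all genes tested, and DESeq2 called 3 (Col15a1, Col4a1 and Col4a2). At day 28 it was 11 of 38, beside 14.9%, and DESeq2 called 2 (Col15a1 and Col8a1). At day 14 the sorafenib libraries were all below the water libraries for 5 collagens and all above for 4, beside 10.6% and 10.5% of all genes. At day 28 these counts were 8 and 5, beside 11.9% and 10.1%. For the difference of the sorafenib effect between the days, no collagen passed by edgeR or by DESeq2. By edgeR 3 of 40 had an unadjusted p below 0.05, beside 4.42% of all genes. In simulated counts this edgeR comparison called 0% of genes changed 1.5-fold or 2-fold, so absent calls do not show equal effects.

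**Figure D5:**
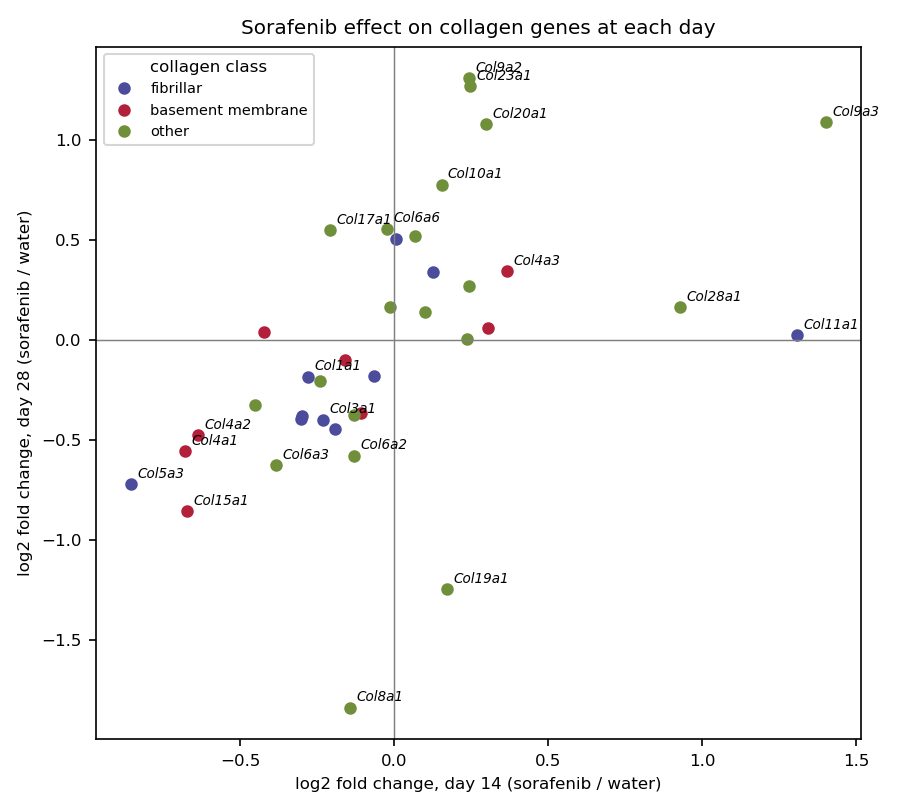
Log2 fold change of sorafenib over water at day 14 (horizontal) and day 28 (vertical) for the 38 collagens tested at both days, coloured by class. Col4a1, Col4a2, Col15a1 and Col5a3 lie in the lower left at both days, and Col8a1 is low at day 28 alone, at -1.84 against -0.14 at day 14.

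Day 28 was set against day 14 within each treatment, but the days are in separate deposited tables, so day and table cannot be told apart. No collagen passed by edgeR, with water (8.51% of all genes passed) or with sorafenib (3.32%). An unadjusted p below 0.05 was found for 2 of 40 collagens with water, beside 24.5% of all genes, and for 5 of 40 with sorafenib, beside 19.1%. DESeq2 called Col8a1 with water and Col15a1 and Col19a1 with sorafenib. Col4a1 and Col15a1 had opposite signs. Col4a1 was at 0.42 (SE 0.20) with water and 0.52 (SE 0.20) with sorafenib, whereas Col15a1 was at -0.35 (SE 0.19) and -0.56 (SE 0.19). Col8a1 was at 1.17 with water (SE 0.39, edgeR adjusted p = 0.0795). Col19a1, a rare fibril-associated collagen of at most 5.81 CPM in any library, was at -1.75 with sorafenib (SE 0.51, adjusted p = 0.0774) and passed without the shallow replicate 3.

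Genes that fold and modify collagen chains in the endoplasmic reticulum were described with the same average. Of 20 tested, 14 lay below 0, 4 were called lower and 0 higher, with a median of -0.19, beside 2.41% of all genes called lower and 2% higher. Serpinh1, which encodes the collagen chaperone HSP47, was at 151, 218 and 234 CPM in water hearts and 118, 107 and 104 CPM with sorafenib at day 14. The day 28 libraries had 166, 200 and 233 CPM in water hearts and 110, 126 and 84.4 CPM with sorafenib, and the groups overlapped at neither day. Its average log2 fold change was -0.90 (SE 0.14, edgeR adjusted p = 0.00979), and it passed in all 19 alternative settings. The others were the prolyl hydroxylase subunits P4ha1 (-0.48, SE 0.13) and P4hb (-0.46, SE 0.12) and the galactosyltransferase Colgalt1 (-0.41, SE 0.10), with adjusted p from 0.039 to 0.049.

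Of 18 tested genes that process, cross-link or space collagen fibrils, 14 lay below 0, with a median of -0.28, and 2 were called lower, beside 2.41% of all genes. The cross-linking enzyme Loxl2, a lysyl oxidase, was at -0.69 (SE 0.18, edgeR adjusted p = 0.049). The fibril-spacing proteoglycan Lum was at -0.77 (SE 0.16, adjusted p = 0.023). Pxdn, the peroxidase that cross-links collagen IV, was at -0.52 (SE 0.16, edgeR adjusted p = 0.073) and did not pass by edgeR. In the average DESeq2 called 4 of this list (Loxl2, Lum, Pxdn and Sparc), beside 1764 of all 27067 genes it tested. No collagen receptor of 10 tested and no profibrotic signal gene of 17 tested passed by edgeR, with medians of -0.08 and -0.09. Unadjusted p was below 0.05 for 2 receptors and 5 signal genes, beside 24.3% of all genes, and DESeq2 called 1 (Itgb1) and 0. Among them Itgb1, the common chain of the collagen-binding integrins, was at -0.31 (SE 0.11, adjusted p = 0.11) and Tgfb1 at -0.40 (SE 0.13, adjusted p = 0.090).

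Markers of the cells that make these collagens were measured in the same libraries. All 8 pericyte markers lay below 0 in the average, with a median of -0.30, and Kcnj8 was called lower (-0.63, SE 0.12, edgeR adjusted p = 0.0185). Their summed level was 679 to 870 CPM with sorafenib and 962 to 1010 CPM with water at day 28, and 956 to 978 against 876 to 1050 CPM at day 14. Of 10 endothelial markers 6 lay below 0, with a median of -0.15, and 2 were called lower, the VEGF receptor Kdr (-0.73, SE 0.15) and Emcn (-0.54, SE 0.13). These pericyte and endothelial calls stand beside 2.41% of all genes tested that were called lower in the average. Their summed level was 1450 to 1860 against 1550 to 1890 CPM at day 14 and 1410 to 1670 against 1550 to 1680 CPM at day 28. No pericyte, endothelial or fibroblast marker was at 0 in any library. The part of these cell types in the lower Col4a1, Col4a2 and Col15a1 was not tested, and in bulk tissue fewer cells of a type and less RNA per cell cannot be told apart.

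Of 10 fibroblast markers 6 lay below 0 in the average, with a median of -0.06. Among them 1 was called lower (Lum, which is also in the processing list), beside 2.41% of all genes. By day, 2 of the 10 markers lay below 0 at day 14 (median 0.22) and 8 of 10 at day 28 (median -0.26). The summed level was 2120 to 2420 CPM with sorafenib against 1570 to 2240 CPM with water at day 14, and 1930 to 2930 against 2430 to 4150 CPM at day 28. Of the activated fibroblast markers 4 of 10 lay below 0, with a median of 0.17. In the average none was called by edgeR or DESeq2, and 3 had an unadjusted p below 0.05, beside 24.3% of all genes, while at day 14 DESeq2 called Acta2. All 8 macrophage markers lay below 0, with a median of -0.78, and 3 were called lower (Adgre1, C1qa and C1qb), beside 2.41% of all genes. Their summed level was 76.8 to 190 CPM with sorafenib against 153 to 279 CPM with water at day 14 and 106 to 269 against 225 to 327 CPM at day 28. Smooth muscle markers had a median of 0.40 in the average, where none of 8 was called by edgeR or DESeq2 and 4 had an unadjusted p below 0.05, beside the same 24.3%. At day 14 their median was 0.70, and DESeq2 called Acta2 and Myh11. The 8 cardiomyocyte markers, which define the labelled tissue, summed to 92340 CPM or more in each library. In the average none was called by edgeR, with 1 at an unadjusted p below 0.05, and DESeq2 called Actc1. Mesothelial markers of the heart's surface differed widely between libraries of a group. At day 14 they summed to 44.3 to 115 CPM with water and 25.9 to 66 CPM with sorafenib. Wt1 alone gave 40.4 CPM of the lowest water sum (replicate 2). Muc16 ran from 1.36 CPM in that library to 33 CPM in water replicate 3, beside 0.747 to 12.7 CPM with sorafenib. Water replicates 3 and 7 also held more Col4a1 and Col4a2 than replicate 2. The median log2 fold change was -1.95 at day 14, with 7 of 7 tested below 0. It was 2.33 at day 28 (1 of 4) and 0.002 in the average (4 of 8). EdgeR called none, and DESeq2 called Krt19 and Upk1b at day 14. The part of these cells in the collagen values was not tested.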

How the data were processed

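The 12 heart libraries were made from rRNA-depleted total RNA, per the labels' protocols. Per the file headers, the authors counted read pairs per gene with featureCounts 2.0.1 on mRatBN7.2 without using strand, and deposited these counts in a separate file for each day. STAR is named in the submitters' processing notes. The kit marks strand and the counts do not use it. In the day 14 file, 2 count columns that match none of the samples were left out. Tests used edgeR 4.0.16 under R 4.3.3 (quasi-likelihood, robust dispersion, filterByExpr, TMM), with Benjamini-Hochberg adjustment over all genes tested and a threshold of 0.05. Each day was fitted alone, and the average, the difference and the time comparisons came from a fit of all 4 groups. SE is the log2 fold change over the root of F. TPM used the deposited gene lengths. Other settings tried were RLE factors, DESeq2 1.42.0, filters on low counts (none, or 1 CPM in 3 libraries), dispersion without the robust option, all groups in the fit of a day, a length trend removed (lowess span 0.3), a replicate block, and omission of each library. Collagens named were those past the threshold, the 3 of smallest p and the 3 of highest level of each class, and a list given by name; of other lists, the called members and those of smallest p. Col19a1, the 4 untested collagens and the gene ratios were chosen after their values were seen. The members and lists were chosen with earlier results of these data known. Code was tested on simulated data.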

Additional observations from a re-analysis of the deposited data

How the results depend on the processing

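With DESeq2 the number of collagens called was 3 at day 14, 2 at day 28, 8 in the average, 1 for water over time and 2 for sorafenib over time, against 0, 0, 4, 0 and 0 by edgeR. Of all genes DESeq2 called 392 at day 14, 256 at day 28 and 1764 in the average, against 0, 0 and 801. RLE factors, no filter, the stricter filter and no robust dispersion left the count of the average at 4, and removal of the length trend gave 5. Whether the replicate numbers pair the samples of day 28 cannot be settled from 3 libraries per group. Deviations of same-numbered water and sorafenib libraries correlated at 0.115, 0.00238 and 0.163, and those of unlike numbers at -0.161 to 0.0504. Libraries of numbers 2 and 4 correlated best with their own number. Those of number 3, which include the shallow library, did not. With the replicate block the count was 0 in the average and 1 at day 28 (Col8a1). At day 14 the groups share only number 7, so no block could be fitted to that day alone. The block fit of the average takes its day 14 effect from the libraries of that number only. Leaving out single libraries gave 0 to 4 collagens in the average and 0 to 1 for sorafenib over time. Class medians of the average then ranged from -0.40 to -0.15 (fibrillar), -0.30 to -0.13 (basement membrane) and 0.00 to 0.18 (other). In other comparisons the class medians that moved by more than their spread ranged from -0.55 to -0.11 for the basement membrane class at day 14, from -0.62 to -0.08 for the fibrillar and from -0.02 to 0.30 for the other class at day 28, from -0.45 to 0.12 (fibrillar) and -0.17 to 0.22 (other) for the difference of the days, and from -0.19 to 0.15 (other) for sorafenib over time. Each of these fits had fewer libraries in a group, and the cause of the shifts was not tested.

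Signs turned for genes near 0, none of them called. Col11a2 at day 14 was at -0.0092 with DESeq2, -0.0045 with RLE factors, -0.002 in the fit of all groups and -0.026 without the length trend. At day 28 Col11a1 was at -0.048 with DESeq2, -0.058 without the length trend and -0.20 with the block, Col4a4 at -0.042 with the block, Col18a1 at -0.011 in the fit of all groups and Col12a1 at -0.0046 without the length trend (-0.053 in the average). Leaving out single libraries gave, at day 14, -0.23 to 0.032 for Col4a5, -0.22 to 0.087 for Col5a2, -0.40 to 0.15 for Col8a1, -0.14 to 0.15 for Col11a2 and -0.38 to 0.22 for Col12a1. At day 28 it gave -1.15 to 0.17 for Col1a1, -0.23 to 0.26 for Col4a4, -0.33 to 0.04 for Col4a6, -0.45 to 0.31 for Col11a1, -0.21 to 0.87 for Col11a2, -0.31 to 0.55 for Col12a1, -0.29 to 0.23 for Col18a1 and -0.28 to 0.38 for Col28a1. In the average it gave -0.13 to 0.42 for Col11a2 and -0.15 to 0.22 for Col12a1. In the shallow library genes under about 1 CPM rest on single counts.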
